A study of Macaca mulatta with 11 samples.

Results

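The outermost 2 Mb at each end of macaque chromosomes 1 to 20 held 374143 of the 3115109 CpG positions measured by capture bisulfite sequencing, 12.01% of them. An end was taken as all positions within 2 Mb of the lowest or of the highest listed start of a chromosome, which gives 40 ends. The DNA was extracted from area 46 of the prefrontal cortex, taken from 11 rhesus macaques before any alcohol drinking, with 1 library per animal. Cohort 10 supplied 2 animals with ages of 5.02 and 5.08, and cohort 14 supplied 9 with ages up to 5.44. All 11 tissues were alcohol-naive, and the labels give each animal an ethanol value recorded later over 6 months, called the intake value here, from 1.69 to 4.31. The labels state no unit for age or intake. No animal formed a control group, so the reference for the ends was the rest of the same chromosomes in the same libraries.

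CpG methylation is the addition of a methyl group to cytosines that precede a guanine. Most isolated CpGs of mammalian genomes are methylated, whereas dense clusters of CpGs, called CpG islands, are usually unmethylated, above all at gene starts. The regions beside the telomeres, the repeats that cap chromosomes, are known to be rich in G and C and in CpG clusters. A comparison of ends with the interior therefore has to be made at equal CpG density. Density was counted as the listed positions within 250 bp on either side, the position itself included, in 5 classes. CpGs that were not listed do not enter this count. It can therefore lie below the CpG density of the DNA, which was not measured. Within each chromosome and class the mean level at ends was set against that of the rest, and classes were combined with weights equal to the number of end positions.

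Libraries held 479979855 to 934657900 counts in all, and mean depth at ends ran from 123 to 238 reads per position and animal. The tissue is a mixture of cell types, and a change in their shares cannot be told apart from a change of methylation within a type. The label of the tissue was not checked against markers, since the files pair no position with a gene. For the same reason the regions below are given by coordinates, as in the deposited files, and the sources used here do not name their genome build.

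The ends were crowded with measured CpGs. They made up 2.98% of the listed span and carried 4677 positions per Mb, against 1052 per Mb in the rest. The excess was greatest at intermediate density. Positions with 10 to 19 neighbours formed 36.1% of the end positions and 23.1% of the rest, whereas those with 1 to 4 formed 3.16% and 10.9%. Positions with 20 to 39 formed 34.2% and 32.6%, and those with 40 or more formed 13.2% and 15.6%. A single end held between 388 positions, on chromosome 2 at the highest starts, and 21877, on chromosome 20 at the lowest starts.

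Positions with many listed CpGs nearby were far more methylated at the ends than elsewhere. At positions with 20 to 39 listed CpGs nearby, the level at ends was 51.1% ± 0.187 (SD, n = 11), with 50.8% in the lowest animal and 51.5% in the highest. The matched rest stood at 23.0%, between 22.5% and 23.4% in single animals. The groups did not come near each other, and the difference was 28.1 ± 0.145 percentage points (SD, n = 11), higher at ends in 11 of 11 animals. An exact two-sided sign-flip permutation test over animals gave p = 0.000977, the smallest that 11 animals allow, and 0.00117 after adjustment over the 6 comparisons (all positions and 5 classes). Because every animal was read at the same positions, this test speaks of agreement between animals and not of a sampling of chromosome positions.

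The difference changed with density. With 10 to 19 positions nearby the level was 71.4% at ends and 54.1% in the rest, a difference of 17.3 ± 0.101 points. With 40 or more, where most CpGs are unmethylated everywhere, it was 23.1% against 13.2%, a difference of 9.83 ± 0.335 points. With 5 to 9 it was 75.0% against 69.5%, or 5.53 ± 0.130 points. Each of these was higher at ends in 11 of 11 animals, with the same exact permutation p. CpGs with 1 to 4 listed positions nearby stood at 75.8% at ends and 75.7% in the rest. That difference of 0.109 ± 0.2497 points was above 0 in 7 of 11 animals and did not pass (exact permutation p = 0.187, adjusted 0.187). Its direction and its call changed with the matching, from -0.197 points in the outermost 1 Mb (adjusted exact permutation p = 0.0430) to 1.95 points at positions with at least 100 reads in every animal (adjusted exact permutation p = 0.000977). Over all positions the matched difference was 17.9 ± 0.107 points, from 58.7% at ends and 40.8% in the rest.

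The distribution of levels behind these means differed too. In the class with 20 to 39 positions nearby, 39.4% of end positions lay over 80% methylation against 14.2% of the matched rest, and 37.1% lay under 20% against 72.2%. The share between these limits was 23.5% at ends and 13.7% in the rest. With 40 or more positions, 72.5% of end positions were still under 20%, against 85.5%, and 14.7% were over 80%, against 6.54%. With 20 to 39 positions, methylated and unmethylated CpGs at ends were thus about equally frequent and intermediate ones were more frequent than in the rest. With 40 or more, unmethylated CpGs were the majority at ends as elsewhere. In every class but the sparsest, the share over 80% was larger at ends in 11 of 11 animals and the share under 20% was smaller in 11 of 11.

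**Figure D1:**
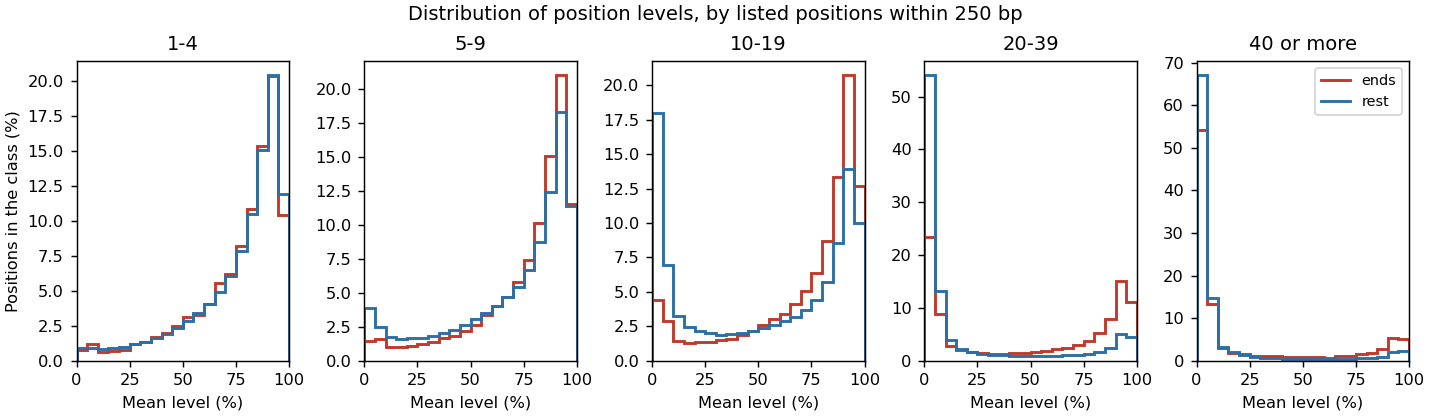
Share of positions (%) in steps of 5 points of mean level over 11 animals, in 5 panels by listed positions within 250 bp, with ends in red and the rest in blue, before matching on chromosome. From 10 to 19 positions upward, the ends have a higher peak near full methylation and a lower peak near 0 than the rest.

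Whole regions were divided as well, in shares of regions and chains that were not matched on chromosome, density class or depth. Regions joined positions at most 200 bp apart, with a maximum length of 1000 bp and a minimum of 5 positions, and 16772 of 140730 had their midpoint at an end. Of those with at least 20 positions, 2905 of 6529 at ends (44.5%) had a mean level over 80%, against 7699 of 39453 (19.5%) in the rest. Under 20% lay 24.1% at ends and 57.0% in the rest. Without the split at 1000 bp, 427 unbroken chains of at least 100 positions lay at ends. Of these, 21.8% were over 80% and 52.9% under 20%, against 4.001% and 82.5% of 3824 chains in the rest.

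The longest methylated chains at ends were named after their values were seen, as the ones with most positions. On chromosome 8, 854 CpGs from 144186194 to 144198275, 1.49 Mb from the outermost position, had 88.4% in the lowest animal, 89.7% at the median and 92.3% in the highest. A chain of 501 CpGs on chromosome 10 from 98787988 to 98795964 ran from 90.9% to 92.9%. The third, 290 CpGs on chromosome 19 from 56405096 to 56406708, varied more, from 84.1% to 93.1%. All 11 animals were over 80% in each of the 3. Unmethylated chains of like size lay among them. On chromosome 4, 500 CpGs from 168479054 to 168486439 had 7.24% to 8.16%, and on chromosome 10, 339 CpGs from 98176598 to 98180126 had 6.24% to 7.49%. The chains on chromosome 10 lie at the same end, so long methylated and long unmethylated stretches stood within 2 Mb of each other.

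Nearly all ends took part, to very different degrees. The density-matched difference was above 0 at 39 of 40 ends, over 10 points at 28 and over 20 points at 13. It ran from -0.123 to 33.6 points with a median of 16.9. Ends at the lowest starts had a median of 16.5 points and those at the highest starts 17.5. With both ends of a chromosome pooled, 20 of 20 chromosomes were higher at ends, by 6.17 to 25.7 points. In the class with 20 to 39 positions, 39 of 40 ends were higher, with a median of 27.6 points. In the class with 40 or more, 34 of the 39 ends that held such positions were higher, and in the class with 1 to 4 only 24 of 40.

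**Figure D2:**
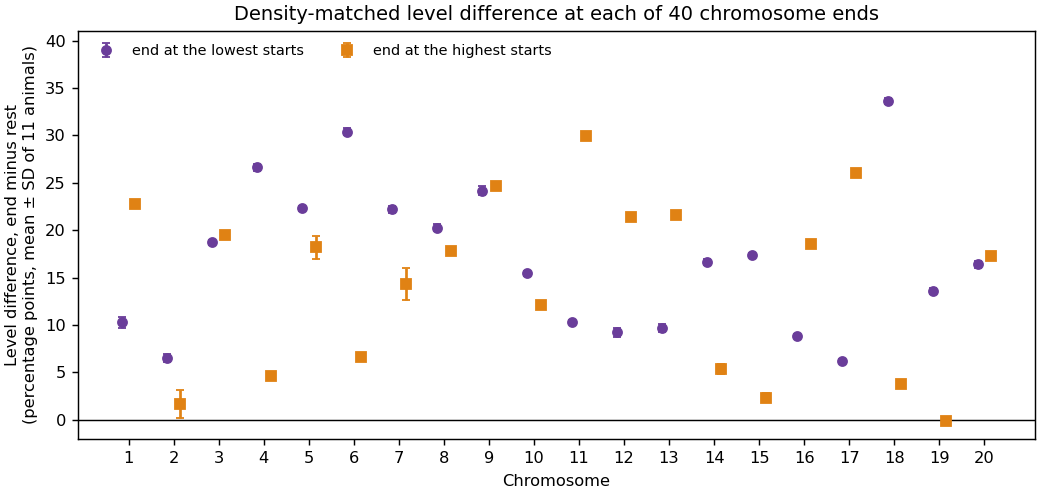
Level difference between each of the 40 ends and the rest of its chromosome, matched on density (percentage points), by chromosome, with circles for the end at the lowest starts and squares for the end at the highest starts. Points are means and bars SDs of 11 animals. All but the upper end of chromosome 19 lie above 0, and the end of chromosome 18 at the lowest starts is highest at 33.6 points.

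The lower end of chromosome 18, from 5966 to 1934050, held 8021 positions and had the largest difference. It was 32.9 points in the lowest animal and 34.0 in the highest, so all animals were alike. Its dense CpGs, with 20 or more positions nearby, stood at 38.9% in the outermost 0.5 Mb and 64.7% in the next, against 14.2% in the rest of the chromosome. The largest methylated region there had 87 CpGs from 1210012 to 1210994, at 94.9% in the lowest animal, 95.6% at the median and 96.3% in the highest.

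Chromosome 6 came next, with 30.4 ± 0.390 points (SD, n = 11) over 13705 positions from 28600 to 2013979. Its dense CpGs climbed from 53.2% in the outermost 0.5 Mb to 70.1% between 1 and 1.5 Mb and then stood at 25.9% between 1.5 and 2 Mb. In that end, 103 CpGs from 874117 to 875101 had a level of 81.9% ± 3.87, from 75.4% in animal 1 of cohort 14 to 87.5% in animal 6 of cohort 14. The upper end of chromosome 11, from 131045069 to 133023066, followed with 29.9 ± 0.306 points. There 89 CpGs from 132400133 to 132401105 had 86.1% ± 2.66. The lower end of chromosome 4 differed by 26.6 ± 0.341 points, and its 79 CpGs from 487529 to 488522 had 87.0% ± 2.45. At 3 of these 4 regions animal 6 of cohort 14 was the highest.

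At other ends the mean difference was small, and the classes behind it differed in sign. The upper end of chromosome 19, from 56276879 to 58269229, was the only 1 of the 40 at or below the rest, with -0.123 ± 0.344 points over 8826 positions, and 3 of 11 animals lay above 0 there. By class, from the sparsest to the densest, it differed by 8.50, 5.57, -3.82, -9.31 and 10.9 points. Its dense CpGs stood at 10.9% between 1 and 1.5 Mb from the outermost position and at 54.7% between 1.5 and 2 Mb, against 29.9% in the rest of chromosome 19. The opposite end of the same chromosome was 13.6 ± 0.289 points higher than the rest. The difference at the upper end was 3.64 points in the outermost 4 Mb, -2.23 in the outermost 1 Mb, -5.18 without positions 1 bp apart and -3.82 at positions with at least 100 reads in every animal. In its largest unmethylated region, 98 CpGs from 58075567 to 58076085, levels ran from 3.42% to 24.5%.

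The upper ends of chromosomes 2, 15 and 18 were higher than the rest by 1.66 ± 1.48, 2.34 ± 0.459 and 3.76 ± 0.343 points. The end of chromosome 2 rests on 388 positions, was above 0 in 10 of 11 animals, and stood at -0.125 points in the outermost 4 Mb. There the class with 10 to 19 positions differed by -26.1 points and that with 20 to 39 by 15.2. That of chromosome 15 stood at -1.22 points in the outermost 1 Mb. That of chromosome 18 stood at 0.024 points in the outermost 1 Mb and at 1.61 at positions with at least 100 reads. Their largest unmethylated regions were 98 CpGs on chromosome 18 from 73840328 to 73841326, at 2.61% ± 0.290, and 90 CpGs on chromosome 15 from 111400717 to 111401713, at 2.81% ± 0.384. On chromosome 2, 73 CpGs from 196115757 to 196116379 varied more, from 7.02% to 21.2%. Chromosome 18 thus held both the end with the largest difference and 1 of the 4 with the smallest.

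The higher level did not stop at 2 Mb. In the 0.1 Mb just inside the limit 15011 positions had a mean level of 58.3%, and in the 0.1 Mb just outside 18715 had 57.6%. In the class with 20 to 39 positions nearby, the level was 44.7% in the outermost 0.25 Mb, 50.1% from 0.25 to 0.5 Mb, 52.4% from 0.5 to 1 Mb and 51.8% from 1 to 2 Mb. It was then 43.6% from 2 to 4 Mb, 31.4% from 4 to 8 Mb, 23.6% from 8 to 16 Mb and 17.2% beyond 32 Mb. The SD over animals was at most 0.341 points in each of these bins. In this class methylation was therefore highest between 0.5 and 2 Mb, lower in the outermost 0.25 Mb, and lower with each step inward from 2 Mb. The class with 40 or more positions took another course, with 21.7% in the outermost 0.25 Mb, 26.7% from 0.5 to 1 Mb and 20.8% from 1 to 2 Mb. It had 13.3% from 4 to 8 Mb and 14.1% from 8 to 16 Mb. The class with 10 to 19 positions ran like that with 20 to 39. It went from 66.8% outermost to 71.8% at 1 to 2 Mb and was 47.0% beyond 32 Mb. With 1 to 4 positions the level stayed between 74.6% and 76.7% in all bins. Against positions over 8 Mb from the ends only, a reference chosen after seeing the data, the difference over all classes was 21.3 ± 0.126 points.

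**Figure D3:**
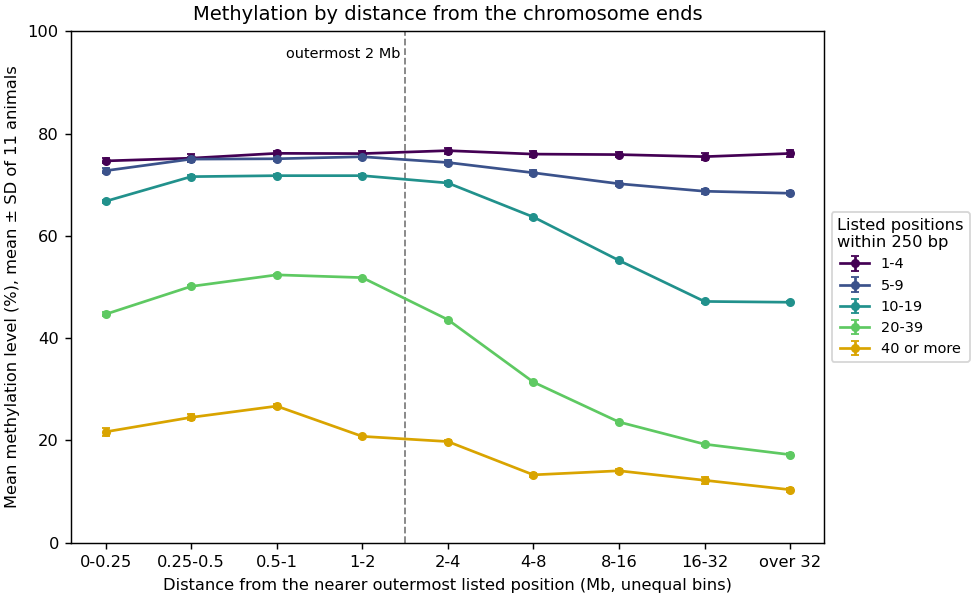
Mean methylation level (%) by distance from the nearer outermost listed position (Mb, unequal bins), with 1 line for each class of listed positions within 250 bp. Points are means and bars SDs of 11 animals, and the dashed line marks the 2 Mb limit. The lines for 10 to 19 and 20 to 39 positions are highest between 0.5 and 2 Mb and fall inward, while the line for 1 to 4 stays level.

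Ends also had more listed positions within 50 kb and were read less deeply. Both of these, and the size of the chain of listed CpGs, were added to the matching after seeing the data. End positions had a median of 847 listed positions within 50 kb on either side, the rest 270. Matched on that number as well, the difference for 20 to 39 positions was 23.9 ± 0.152 points, and matched on the size of the chain of CpGs it was 25.7 ± 0.136. Matched on read depth it was 28.8 ± 0.148. The difference was thus about as large at equal depth and smaller at equal numbers of listed positions within 50 kb, and it was higher at ends in 11 of 11 animals each time.

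Read depth was lower at the ends. With density matched, the mean was 166 reads per position at ends and 218 in the rest, 23.5% lower, in 11 of 11 animals (exact sign-flip permutation p = 0.000977, adjusted 0.000977). The shortfall was greatest with 5 to 9 positions nearby, at 34.6%, and least with 20 to 39, at 15.2%. At single ends the ratio to the rest ran from 0.611 to 1.06, and it was below 1 at 37 of 40. Libraries were caught with probes designed on the human genome. How well end sequences match those probes was not tested.

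Animals differed more from each other at the ends. The SD between the 11 animals averaged 7.66 percentage points per position at ends and 6.08 in the matched rest, a ratio of 1.26. By class the ratio ran from 1.13, with 1 to 4 positions nearby, to 1.43, with 20 to 39. The mean deviation of an animal from the other 10 was larger at ends in 11 of 11 animals. The SD was larger at intermediate levels, both at ends and in the rest. Over all classes ends held more positions between 20% and 80%, with 28.3% against 23.7%. With 5 to 9 positions nearby they held fewer, 37.2% against 39.9%, and the ratio there was 1.15, and 1.16 at equal level. Over all classes the ratio at equal level was 1.13, and it was above 1 at 40 of 40 ends, from 1.02 to 1.31. At equal level and equal depth it was 1.03, and from 0.998 to 1.04 by class, so most of the larger spread was not seen between positions of like level and depth. These are descriptions with no test, since the deviations of the animals share their mean.

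**Figure D4:**
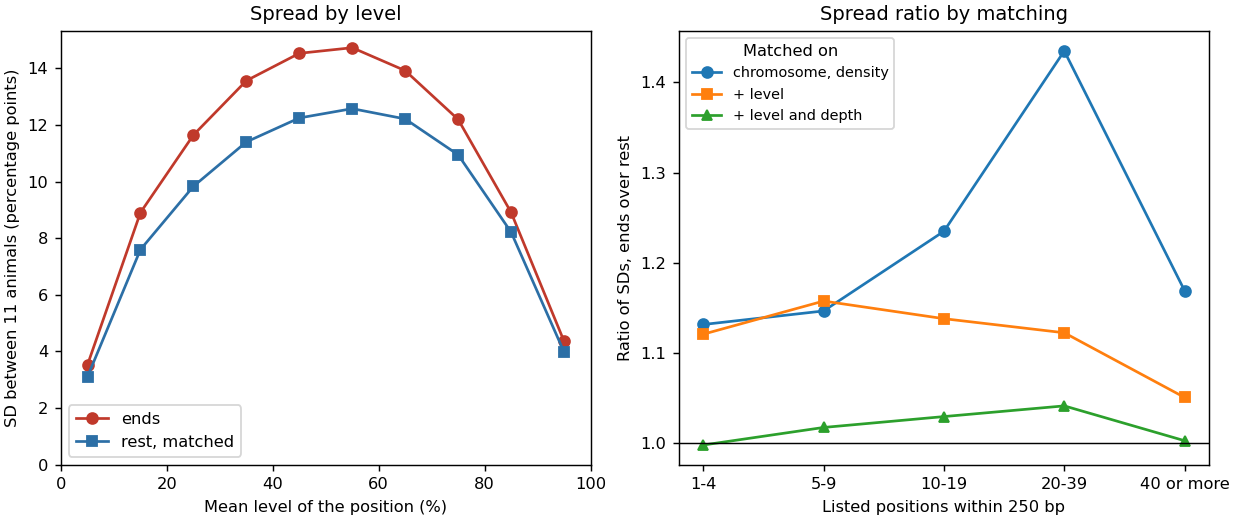
Left, SD between 11 animals (percentage points) by mean level of the position (%) at ends (red circles) and in the matched rest (blue squares). Right, ratio of SDs, ends over rest, by listed positions within 250 bp under 3 matchings; with 20 to 39 positions it goes from 1.43 to 1.12 once level is matched and to 1.04 once depth is matched too.

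Positions where 1 animal lay under 20% and another over 80% made up 2.47% of the ends and 1.42% of the matched rest. Among regions, 54 of 16772 at ends (0.322%) and 270 of 123958 in the rest (0.218%) spanned more than 50 points between the lowest and the highest animal. These shares of regions were compared without matching. The 54 were small, with a median of 7 positions. In 39 of them the animal farthest from the median was lower, and in 15 it was higher. Animal 6 of cohort 14 was the farthest in 13, more than any other, with 9 lower and 4 higher. In 30 of the 54 the farthest animal was 1 of 4 libraries (animals 3, 6, 7 and 8 of cohort 14). These had the most positions with an unmethylated count of 1, the lowest found. Animal 6 also had the lowest mean depth of cohort 14, 176 reads per position. Both animals of cohort 10 were read less deeply, at 159 and 154. Animal 2 of cohort 10 was the farthest in 4 regions as the lower and in 1 as the higher, and animal 1 of cohort 10 in none. The part of depth and of the 4 libraries in these ranges was not tested.

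The 4 regions that follow had the largest SD between animals among regions at ends with at least 20 positions. On chromosome 12, 22 CpGs from 129637329 to 129637847 had 24.2% in animal 2 of cohort 10. Animals 8 and 4 of cohort 14 had 32.9% and 35.4%, and the other 8 lay between 63.0% and 88.8%. The 3 low animals thus stood well apart from the others. On chromosome 3, 33 CpGs from 184502504 to 184503014 ran from 27.0% in animal 8 of cohort 14 through a median of 70.6% to 92.7% in animal 7 of cohort 14. On chromosome 19, 32 CpGs from 382772 to 383012 ran from 40.1% to 89.4%, and on chromosome 7, 21 CpGs from 167877380 to 167877642 ran from 14.1% to 60.9%. In these last 3 regions the animals were spread along the range. The fewest reads behind any of these values were 695. The 4 had intermediate mean levels, from 35.4% to 66.7%.

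The last comparison asked whether methylation of the ends before drinking was related to later intake. In a moderated quasi-binomial logistic model with cohort as a covariate, fitted to 119749 regions with a pooled level of 5% to 95%, 0 regions at ends had an adjusted p under 0.05, as over all regions (0%). Of 15288 regions tested at ends, 426 (2.79%) had an unadjusted p under 0.05, against 2.92% of all regions and 2.94% of the rest, so the ends held about their share. These shares lie under the 5% that a calibrated fit gives with no relation. The 0 calls therefore do not show that intake and methylation are unrelated. Of the 426, 245 had a slope above 0 (1.6% of regions at ends, 1.82% of all, 1.86% of the rest) and 181 a slope below 0 (1.18%, 1.1% and 1.09%). A slope above 0 was fitted in 53.1% of regions at ends, 53.9% of all and 54.1% of the rest. Limma on logit methylation called 0 as well, with 520 at an unadjusted p under 0.05 (3.40% at ends, 3.38% of all). Without animal 9 of cohort 14, the animal of highest intake, 716 regions at ends (4.68%) had such a p, against 5.36% of all, and 0 passed.

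The regions at ends with the smallest p-values did not pass either. Their slopes are given in percentage points of methylation per unit of intake. The slopes and their standard errors come from a separate unweighted least-squares fit of the levels with cohort as a covariate. The p-values come from the logistic model moderated with limma, where all had an adjusted p of 0.999982. The steepest of the 4 with a positive slope had 29 CpGs on chromosome 18 from 510854 to 511143. It stood at 81.3% ± 2.20 in the 6 animals with intake below 3 and at 86.5% ± 2.20 in the 5 at or above 3, with a slope of 3.9997 ± 0.698. On chromosome 9, the 18 CpGs between 133129047 and 133129445 stood at 91.1% ± 3.16 and 95.5% ± 0.593. In both regions the 2 intake classes did not overlap. Regions named here were chosen by their p for intake, so such separation is part of the choice and no added evidence. The share of all tested regions without overlap was not computed. On chromosome 16, 41 CpGs from 704818 to 705623 lay at 8.72% ± 1.61 and 11.2% ± 1.46, and on chromosome 15, 54 CpGs from 1649149 to 1649790 had a slope of 2.96 ± 0.510.

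Among negative slopes, the steepest was that of 6 CpGs on chromosome 15 from 1618072 to 1618212, with 86.1% ± 10.9 below 3 and 66.3% ± 5.71 from 3 up, on as few as 227 reads in an animal. On chromosome 5, the 13 CpGs between 1788801 and 1789013 stood at 94.5% ± 1.39 and 90.1% ± 1.52. The classes did not overlap there, again in a region chosen by its p. On chromosome 17, the 23 CpGs between 94964747 and 94965226 stood at 93.5% ± 1.51 and 89.4% ± 2.45. On chromosome 3, 12 CpGs from 183429851 to 183430296 had a slope of -4.27 ± 1.19.

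The mean level of the ends differed little between animals and, with 20 to 39 positions nearby, was higher in animals of higher later intake. There Pearson's r was 0.830 (permutation p = 0.00164, adjusted 0.0197 over 12 relations) and Spearman's rho 0.773 (permutation p = 0.00727, adjusted 0.0787), a slope of 0.206 ± 0.0461 points per unit. Over all positions r was 0.668 (permutation p = 0.0254, adjusted 0.102) and with 40 or more nearby 0.716 (permutation p = 0.0129, adjusted 0.0772), so only the class with 20 to 39 passed, and by r alone.

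That call was not stable. When reads were pooled over positions, so that deeply read positions counted more, r was 0.0615 (permutation p = 0.858). When the 2 animals with intake values most distant from the median were left out, r was 0.721 (exact permutation p = 0.0258, adjusted 0.309). Within cohort 14 alone it was 0.813 (exact permutation p = 0.00807, adjusted 0.0969), and cohort 10 has too few animals for a value. Without animal 1 of cohort 10 r was 0.807 and without animal 4 of cohort 14 it was 0.767, with adjusted permutation p of 0.0632 and 0.121.

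The rest of the chromosomes had r = 0.692 with intake in the same class. For the difference between ends and rest, r was -0.256 (permutation p = 0.450, adjusted 0.834). Its rho was -0.391 (permutation p = 0.238, adjusted 0.570). Over all positions r was -0.136 (permutation p = 0.695, adjusted 0.834). There rho was -0.418 (permutation p = 0.193, adjusted 0.570). With the 4 libraries rich in unmethylated counts of 1 left out, a choice made after seeing the data, the 7 remaining animals gave rho = -0.929 over all positions (exact permutation p = 0.00278, adjusted 0.0333), which passed, and r = -0.663 (exact permutation p = 0.0881, adjusted 0.176), which did not. In these 7 animals the mean level at ends with 20 to 39 positions nearby had r = 0.938 (exact permutation p = 0.00357, adjusted 0.0214).

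**Figure D5:**
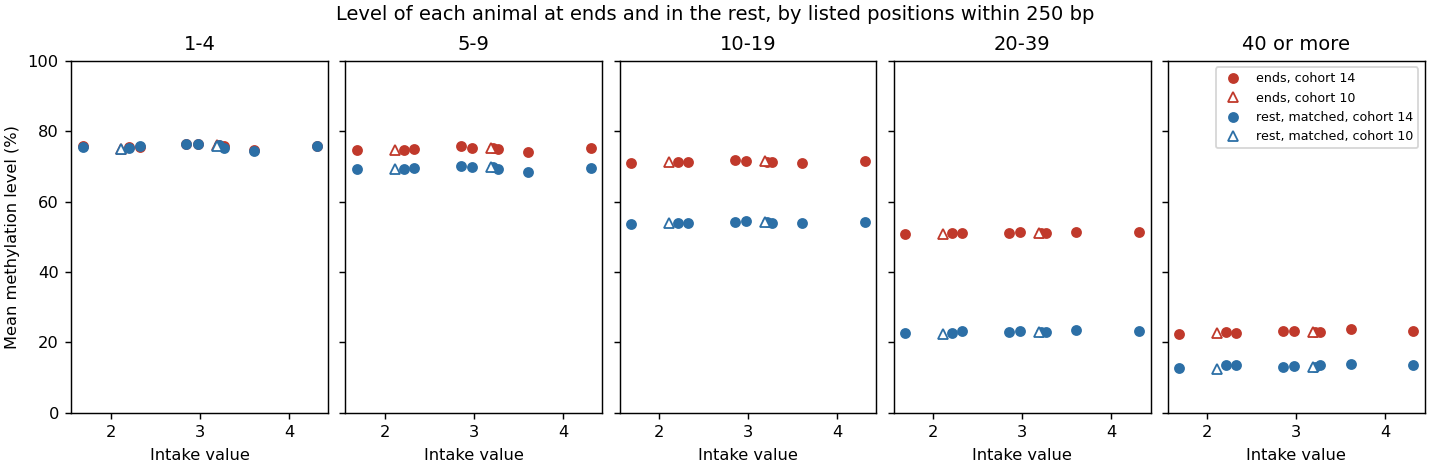
Mean methylation level (%) of each animal against its intake value (no unit in the labels), in 5 panels by listed positions within 250 bp, at ends (red) and in the matched rest (blue), with filled circles for cohort 14 and open triangles for cohort 10. With 20 to 39 positions the ends lie between 50.8% and 51.5% and the rest between 22.5% and 23.4%, and with 1 to 4 positions the ends and the rest lie on each other.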

How the data were processed

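Methylated and total read counts per CpG position were deposited by the authors in separate tables, with names of tools (FastQC, Bismark) per the submitters' processing notes. The sources used here give neither versions nor a genome build. Of the columns of methylated counts, 5 matched no sample and were not used. The lowest methylated and unmethylated counts are both 1, so a count may have been added to each; removing it is an alternative. A level is methylated over total counts, averaged over positions. Animals (1 library each) are the replicates. Ends and rest were matched on chromosome and density class and tested over animals by exact sign-flip permutation. For intake, reads summed per region entered a quasi-binomial logistic model with cohort, moderated with limma 3.58.1 (R 4.3.3), with Benjamini-Hochberg adjustment over 119749 regions. It was tested on simulated data. Other steps used Python 3.11.15, numpy 2.4.6, scipy 1.17.1 and pandas 2.3.3. Correlations used 100000 permutations. The members and lists were chosen with earlier results of these data known, so a p beside them is not independent evidence. Named were the 4 ends with the highest and the 4 with the lowest difference among those with at least 200 positions, with the region of most positions on that side of 80% or 20% in each, the 4 most variable regions of at least 20 positions, and the 4 smallest p-values for intake in each direction. Alternatives were planned, and those matched on depth, nearby positions or chain size, with the rest beyond 8 Mb, or without 4 libraries were chosen after seeing the data. No genome was used, so no sequence or gene is named.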

Additional observations from a re-analysis of the deposited data

Results flagged for a closer look

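Among 46 sets of levels, each from the 9 animals of cohort 14, 2 had an animal far from the others, about what chance gives (1 in 20). In the region on chromosome 19 from 58075567 to 58076085, animal 9 of cohort 14 was highest at 24.5%, with the next animal at 13.5% and the lowest at 3.42%. In the region on chromosome 3 from 183429851 to 183430296, the same animal was lowest at 80.1%, with the next at 89.5% and the highest at 96.1%. That region was named for a negative slope on intake and animal 9 has the highest intake value, 4.31, so its low level there is part of the choice.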

How the results depend on the processing

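Ends and rest were paired within each animal, but no pairing between cohorts was possible. Numbers of replicates here only name animals in the order listed, so none link an animal of 1 cohort to another. Leaving out either animal of cohort 10 in the region model leaves 1, which its cohort term absorbs, so the fit equals cohort 14 alone. The difference in level was higher at ends under all alternatives run for all positions and the 4 classes from 5 upward, and depth was lower in all 114 values. Where values below changed, the cause was not tested.

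With 1 to 4 positions nearby, the level difference passed the threshold with equal weight per chromosome (0.181), 4 Mb ends (0.567), highest starts only (0.247), exact density (0.297), added counts removed (0.352), pooled reads (1.08), at least 50 reads (1.77), at least 100 reads (1.95), the rest beyond 8 Mb (0.192), nearby positions matched (1.82) and chain size matched (0.303). It reversed with chromosomes pooled (-0.137), 1 Mb ends (-0.197), lowest starts only (-0.0319) and without chromosome 19 (-0.0252).

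The share over 80%, ends minus rest, in points from the sparsest class up, was -1.33, 6.66, 14.96, 23.1 and 8.68 with 1 Mb ends (15.4 over all). With 4 Mb ends it was 0.215 for 1 to 4 positions, reversed, 6.88 for 5 to 9, 18.95 for 10 to 19 and 24.0 for 20 to 39. Without chromosome 19 it was 17.6 over all, then 17.8, 27.0 and 7.85 from 10 to 19 up. The share under 20% with 1 Mb ends was -19.6 over all, and -3.77, -17.3, -31.1 and -15.3 from 5 to 9 positions up. With 4 Mb ends it was -21.7 over all, and -0.629, -5.23, -23.0, -34.3 and -11.7 from 1 to 4 positions up. Without chromosome 19 it was -22.3 over all, and -4.76, -20.5, -37.5 and -12.2 from 5 to 9 positions up.

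The ratio of SDs was 1.22 over all with the variance of reads removed. By class it was then 1.09 for 1 to 4 positions, 1.11 for 5 to 9 and 1.19 for 10 to 19. This alternative is the square root of a ratio of mean variances, so its averaging differs from that of the main ratio. At equal level the ratio of SDs was 1.13 over all, and 1.14, 1.12 and 1.05 from 10 to 19 positions up. With 1 Mb ends it was 1.23 over all, and 1.13, 1.20, 1.38 and 1.23 from 5 to 9 positions up. For 10 to 19 positions it was 1.27 with 4 Mb ends, and for 20 to 39 it was 1.47 without chromosome 19. At equal level and depth it was 1.03 over all, then 0.998, reversed, 1.02, 1.03, 1.04 and 1.003 from the sparsest class up.

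The correlation of the mean level at ends with intake reversed with pooled reads for 1 to 4 (-0.0579) and 5 to 9 positions (-0.0175), and in cohort 14 alone for 1 to 4 (-0.0143). For 20 to 39 positions it no longer passed with pooled reads (0.0615), in cohort 14 alone (0.813) or without the 2 animals of most distant intake (0.721). Without the 4 libraries where an unmethylated count of 1 was most frequent it passed over all positions (0.948), for 10 to 19 (0.911) and for 40 or more (0.855). Leaving out 1 animal at a time gave 0.560 to 0.807 over all positions, passing without animal 3 of cohort 14, and 0.767 to 0.891 for 20 to 39. That of the difference between ends and rest reversed with pooled reads for 1 to 4 (-0.183), 10 to 19 (0.221) and 40 or more positions (-0.0366). It also reversed with added counts removed for 5 to 9 (-0.0315). In cohort 14 alone it reversed over all positions (0.00173) and for 5 to 9 (-0.00123). Without the 2 farthest animals it reversed over all (0.0250). Without the 4 libraries it reversed for 1 to 4 (-0.0766), 5 to 9 (-0.202) and 40 or more (-0.137). With 1 animal left out it ran from -0.461 to 0.0215 over all, -0.174 to 0.278 for 5 to 9 and -0.0383 to 0.296 for 40 or more.

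The upper end of chromosome 15 reversed with 1 Mb ends (-1.22), and those of chromosomes 2 and 19 with 4 Mb ends (-0.125 and 3.64). Regions with an unadjusted p under 0.05 for intake numbered 226 of 7417 with 1 Mb ends (3.05%, all regions 2.92%), 745 of 25600 with 4 Mb ends (2.91%, all 2.92%), 723 with intake as 2 classes (4.73%, all 5.12%) and 403 to 716 with 1 animal left out, and 0 passed adjustment in all 19 alternatives.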
